A study of Homo sapiens with 22 samples.

Results

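Across wild-type (WT) and alpha-synuclein overexpressing LUHMES cells, 7 genes were followed whose response to 6-hydroxydopamine (6-OHDA) was large and differed between the genotypes: ROCK1, NAA30, CLGN, CERK, CCNI, CDKN1B and GTF3C4. They are 7 of the 34679 genes of the deposited count table, and all 7 were among the 16601 genes that passed the filter on low counts. They were picked by name from the measured 6-OHDA changes in the 2 genotypes, so their changes in those contrasts are given as a description, with no test. LUHMES is a human mesencephalic cell line, conditionally immortalised, that can be differentiated into post-mitotic neurons, and 6-OHDA is a dopamine analogue that oxidises and is used to injure such neurons. The 22 libraries of polyadenylated RNA fell into 6 groups: alpha-synuclein cells with 6-OHDA and quercetin (3), alpha-synuclein cells with 6-OHDA and rutin (3), alpha-synuclein cells with 6-OHDA (4), untreated alpha-synuclein cells (4), WT cells with 6-OHDA (4) and untreated WT cells (4). All were differentiated cells of 1 line. Doses, exposure times, the construct that drives alpha-synuclein and whether its carriers were 1 clone are not given in the labels. The labels do not say whether replicates were separate cultures, and p-values therefore cover only the spread among these libraries, which may be technical.

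The 7 genes belong to separate parts of cell biology. ROCK1 is a protein kinase that drives actomyosin contraction and, in neurons, growth cone collapse and neurite retraction. NAA30 is the catalytic subunit of an N-terminal acetyltransferase complex, and CLGN (calmegin) is a calnexin-like chaperone of the endoplasmic reticulum best known from the testis. CERK phosphorylates ceramide, a membrane lipid, to ceramide-1-phosphate. CCNI (cyclin I) is an atypical cyclin known from post-mitotic cells, where it binds CDK5. CDKN1B (p27) inhibits cyclin-dependent kinases and holds neurons out of the cell cycle, and GTF3C4 is a subunit of TFIIIC, the factor that recruits RNA polymerase III to tRNA and other small RNA genes.

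The genes lie on separate chromosomes except for 1 pair (GENCODE 29 on GRCh38, 1-based). ROCK1 spans chr18:20946906-21111851 on the minus strand, NAA30 chr14:57390544-57415917 on the plus strand, CLGN chr4:140388455-140427968 and CCNI chr4:77047158-77076005 on the minus strand. CERK spans chr22:46684411-46738261 on the minus strand, CDKN1B chr12:12715058-12722371 and GTF3C4 chr9:132670035-132694955 on the plus strand. GTF3C4 overlaps the start of DDX31, an RNA helicase gene on the opposite strand. Promoter sequence of ROCK1 and CCNI is shown because this pair moved in opposite directions from library to library. Each run is the sense strand from 250 to 51 bases before the RefSeq start on GRCh38.p14, chr18:21111864-21112063 for ROCK1 and chr4:77076040-77076239 for CCNI, both on the minus strand, and capitals mark GC boxes (GGGCGG or its reverse complement CCGCCC).
ROCK1 promoter: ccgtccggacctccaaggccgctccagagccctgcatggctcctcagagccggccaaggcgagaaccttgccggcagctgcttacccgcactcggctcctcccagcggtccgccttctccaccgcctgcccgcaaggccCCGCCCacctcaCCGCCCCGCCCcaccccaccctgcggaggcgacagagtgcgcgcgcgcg
CCNI promoter: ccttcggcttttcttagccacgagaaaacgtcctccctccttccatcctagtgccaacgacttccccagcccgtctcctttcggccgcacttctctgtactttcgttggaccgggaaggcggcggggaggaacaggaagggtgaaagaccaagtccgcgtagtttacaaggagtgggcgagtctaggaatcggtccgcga
The ROCK1 window held 3 GC boxes and the CCNI window none. Of 27305 promoters in RefSeq's table, 34.7% held this motif in the same window, and neither window held a CCAAT box (CCAAT or ATTGG, 28.3% of promoters) or the antioxidant response element TGACNNNGC on either strand (8.32%). The GC content was 74.5% for ROCK1, above that of 89.5% of promoters, and 58.0% for CCNI, above that of 52.2%. The table holds 5 of the 7 genes, without NAA30 and CERK. These matches describe letters in a window and show no binding.

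Libraries held between 1.87 and 20.67 M counts (M, mega), so a floor of 3 counts was worth 0.168 to 1.49 CPM (counts scaled to a common library size, with TMM factors). The 6 neuronal markers were detected in every group, with a summed level of 2259 to 4306 CPM with 6-OHDA and 5905 to 7608 CPM without. Of the dopaminergic markers, TH ranged from 46.8 to 419 CPM over the libraries, while DDC and SLC18A2 stayed at or below 2.43 and 2.59 CPM. The summed microglial markers did not pass 1.27 CPM in any library, the astrocyte markers ranged from 7.70 to 20.1 CPM and the oligodendrocyte markers from 8.79 to 33.3 CPM. The proliferation and progenitor markers (2 of the 4 listed were analysed) summed to 0 to 21.1 CPM in alpha-synuclein cells with 6-OHDA alone. Their sum was 8.86 to 20.2 CPM with quercetin added and 10.6 to 33.5 CPM with rutin added. It was 23.7 to 64.9 CPM in untreated alpha-synuclein cells, which overlaps the rutin range. In WT cells it was 2.98 to 8.17 CPM treated and 21.1 to 38.2 CPM untreated. Of the 2 markers, MKI67 reached 63.6 CPM, while TOP2A did not pass 2.93 CPM in any library. The part of these shifts in the results was not tested. In bulk RNA, fewer cells of a type and less RNA per cell cannot be told apart. Per the library names, the untreated libraries and treated WT libraries ran on lane 1 and all treated alpha-synuclein libraries on lane 2, so lane and group cannot be told apart in 6-OHDA against untreated alpha-synuclein cells, in alpha-synuclein against WT cells with 6-OHDA, and in the interaction of genotype and 6-OHDA.

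With 6-OHDA, ROCK1, NAA30 and CLGN were low in WT cells but not in alpha-synuclein cells, and CCNI, CDKN1B and GTF3C4 were high in WT cells but not in alpha-synuclein cells. CERK was lower on average with 6-OHDA in alpha-synuclein cells and higher in WT cells, with overlapping libraries in both. In WT cells 6 of the 7 had treated and untreated libraries that did not overlap, where 45% of all tested genes did the same. In alpha-synuclein cells 0 of the 7 were separated, against a background of 39.1%. Since these contrasts chose the genes, nothing is read from these counts.

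ROCK1, the kinase of actomyosin contraction, was low in all 4 treated WT libraries. It had 56.5, 49.2, 53.6 and 85.5 CPM in alpha-synuclein cells with 6-OHDA, against 16.0, 88.5, 35.5 and 44.8 CPM in untreated alpha-synuclein cells (replicates 1 to 4 throughout). It had 6.55, 6.05, 9.30 and 4.48 CPM in WT cells with 6-OHDA, against 51.3, 44.0, 61.3 and 73.5 CPM in untreated WT cells. Every treated WT library lay below every other library of the series, while the alpha-synuclein groups overlapped. The fitted log2 change with 6-OHDA was 0.41 ± 0.30 (SE) in alpha-synuclein cells and -3.13 ± 0.41 in WT cells, so the interaction, the first minus the second, was 3.55 ± 0.51. The change in alpha-synuclein cells was 0.93 without untreated replicate 2, 0.15 without untreated replicate 1 and 0.19 without treated replicate 4. An interaction at least this large in size was seen in 0.452% of tested genes, but ROCK1 was picked for a large change. ROCK1P1, a pseudogene that is a partial copy of ROCK1, averaged 10.3 ± 7.39 CPM in treated and 4.00 ± 0.61 CPM in untreated WT cells (SD, n = 4 each). The treated WT mean includes 1 library at 21.4 CPM, and the median was 6.96 CPM. In alpha-synuclein cells, where ROCK1 was not lower with 6-OHDA, ROCK1P1 averaged 10.0 ± 6.25 CPM treated and 3.19 ± 2.10 CPM untreated. Counting ROCK1 and ROCK1P1 together gave means of 16.9 CPM in treated and 61.5 CPM in untreated WT cells. Whether reads were split between the copies was not tested.

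NAA30 showed the same order of groups with a smaller gap. It had 30.1, 26.2, 33.1 and 39.7 CPM in alpha-synuclein cells with 6-OHDA, against 6.43, 33.3, 12.0 and 15.0 CPM in untreated alpha-synuclein cells. It had 5.50, 3.33, 8.84 and 12.4 CPM in WT cells with 6-OHDA, against 19.6, 16.8, 21.7 and 30.7 CPM in untreated WT cells. The WT groups did not overlap, and in alpha-synuclein cells untreated replicate 2 alone lay within the treated range. The log2 change was 0.95 ± 0.33 in alpha-synuclein cells and -1.74 ± 0.41 in WT cells, and the interaction was 2.68 ± 0.53. Without untreated replicate 2 the change in alpha-synuclein cells was 1.51. Its counts never fell below 11 in any library.

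CLGN was close to absent in treated WT cells. It had 8.97, 5.38, 14.6 and 30.4 CPM in alpha-synuclein cells with 6-OHDA, against 6.86, 18.0, 5.64 and 8.40 CPM in untreated alpha-synuclein cells. In WT cells with 6-OHDA it had 25, 1, 0 and 1 counts, or 1.88, 0.302, 0 and 0.497 CPM, against 5.06, 15.7, 17.2 and 5.30 CPM in untreated WT cells. Treated WT libraries lay below all others, but 3 of the 4 rest on at most 1 count, and replicate 1 supplied nearly all of the group's reads. The log2 change was 0.70 ± 0.47 in alpha-synuclein cells and -3.17 ± 0.71 in WT cells, and the interaction of 3.87 ± 0.86 became 5.96 without that replicate. The change in alpha-synuclein cells was 0.0121 without treated replicate 4 and 1.19 without untreated replicate 2.

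CERK, the ceramide kinase, varied most from library to library among the genes with counts everywhere. It had 3.49, 3.59, 5.64 and 2.33 CPM in alpha-synuclein cells with 6-OHDA, against 36, 3.37, 23.0 and 20.5 CPM in untreated alpha-synuclein cells. It had 24.0, 19.4, 40.5 and 2.49 CPM in WT cells with 6-OHDA, against 11.9, 1.28, 5.79 and 8.32 CPM in untreated WT cells. Treated alpha-synuclein libraries were uniformly low, and untreated alpha-synuclein replicate 2 fell among them. Treated WT replicate 4 lay within the range of untreated WT cells, so neither 6-OHDA contrast was free of overlap. The log2 change was -2.54 ± 0.67 in alpha-synuclein cells and 1.65 ± 0.63 in WT cells, and the interaction was -4.19 ± 0.92.

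CCNI, the atypical cyclin, ran opposite to ROCK1. It had 47.0, 46.3, 32.7 and 20.3 CPM in alpha-synuclein cells with 6-OHDA, against 119, 14.5, 77.3 and 57.1 CPM in untreated alpha-synuclein cells. It had 148, 145, 182 and 113 CPM in WT cells with 6-OHDA, against 21.2, 54.5, 16.3 and 16.0 CPM in untreated WT cells. The treated WT libraries were all high, the untreated WT libraries were low with replicate 2 above the other 3, and untreated alpha-synuclein cells spanned nearly the whole range. The log2 change was -0.90 ± 0.46 in alpha-synuclein cells and 2.47 ± 0.47 in WT cells, and the interaction was -3.37 ± 0.66. Without untreated replicate 1 the change in alpha-synuclein cells was -0.49.

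CDKN1B, the gene of p27, had no count in untreated WT cells. Its counts were 4, 11, 6 and 31 in alpha-synuclein cells with 6-OHDA, against 38, 7, 55 and 13 in untreated alpha-synuclein cells. They were 86, 34, 20 and 16 in WT cells with 6-OHDA, or 6.48, 10.3, 9.30 and 7.96 CPM, against 0 in each of the 4 untreated WT libraries. The treated WT mean of 8.5 CPM was at least 74.3-fold higher than in untreated WT cells, taking 3 counts over that group (0.114 CPM) as the limit that a count of 0 allows, for counting error only. In alpha-synuclein cells the means were 1.95 ± 1.41 CPM treated and 2.43 ± 2.31 CPM untreated, with overlapping libraries. The fitted interaction of -9.54 rests on the zeros and gives no bound on size. Whether the zeros reflect how reads were assigned to transcripts was not tested, so the fold may not be a change in expression. Untreated WT libraries held 6.11 to 10.61 M counts, which is within the range of depths at which the gene was counted in treated cells. Over the table, 2 of 16601 genes (0.012%) had 0 counts in every untreated WT library and 10 or more in every treated one.

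GTF3C4, the TFIIIC subunit, was counted mainly in treated WT cells. Its counts were 4, 0, 0 and 3 in alpha-synuclein cells with 6-OHDA, against 54, 0, 86 and 0 in untreated alpha-synuclein cells. They were 127, 32, 17 and 17 in WT cells with 6-OHDA, or 9.57, 9.68, 7.91 and 8.45 CPM, against 0, 0, 0 and 4 in untreated WT cells. The treated WT libraries were tightly grouped, while the untreated alpha-synuclein libraries split into replicates 1 and 3, at 7.72 and 4.81 CPM, and replicates 2 and 4, at 0. Such a mix of 0 and at least 50 counts within untreated alpha-synuclein cells was found for 35 tested genes (0.211%). Here too, the part of read assignment to transcripts was not tested. The fitted interaction was -9.35, and it was -12.8 without untreated WT replicate 4, the library with the group's only 4 counts, so its size is not determined. Over the 22 libraries the counts were 0 in 10 for GTF3C4, 5 for CDKN1B and 1 for CLGN, and in none for the other 4 genes. Of the 12457 genes that averaged at least 5 CPM in some group, 12 (0.0963%) had 0 counts in every library of another group.

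**Figure D1:**
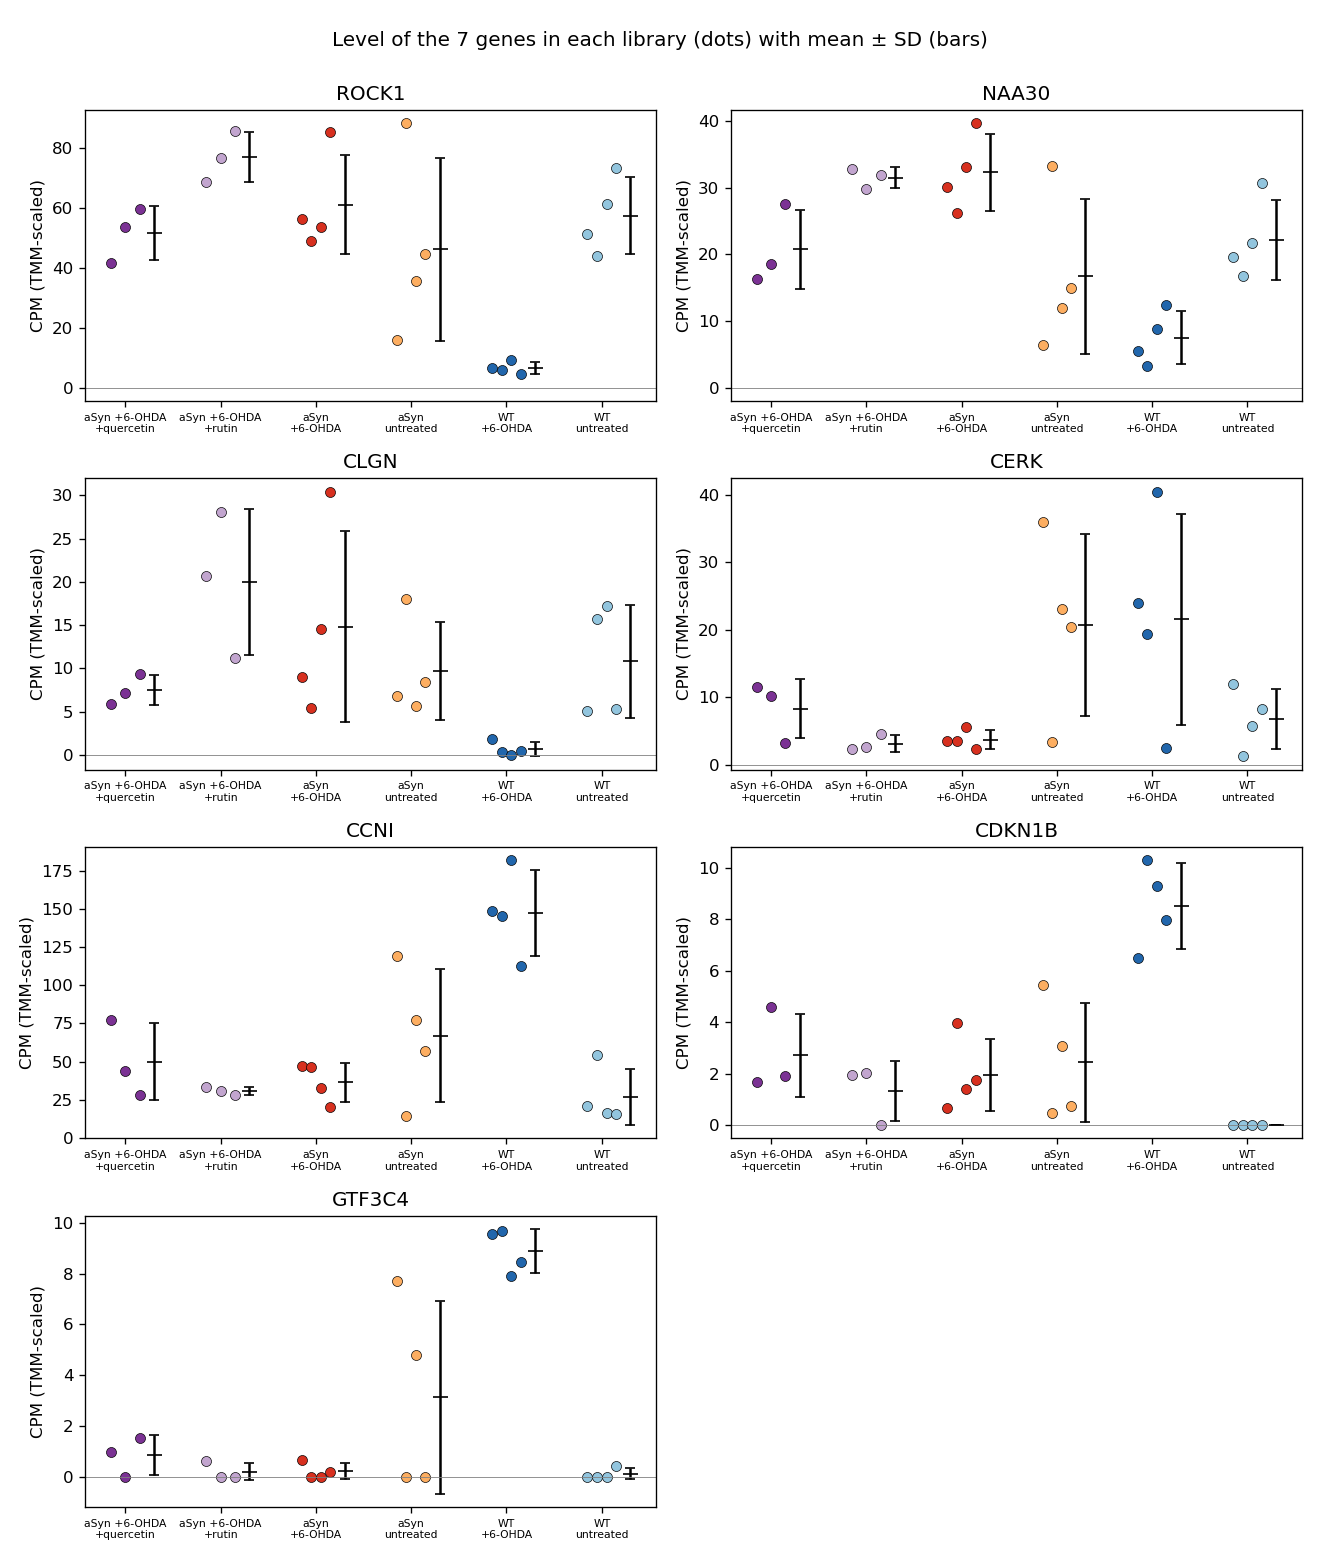
Level of each gene (CPM, linear axis from 0) in each of the 22 libraries (dots, replicates left to right) of the 6 groups, with the mean and SD as bars. Treated WT libraries lie below all others for ROCK1 (4.48 to 9.30 CPM) and above all others for CDKN1B (6.48 to 10.3 CPM), and untreated alpha-synuclein libraries spread widely, as for CCNI (14.5 to 119 CPM).

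**Figure D2:**
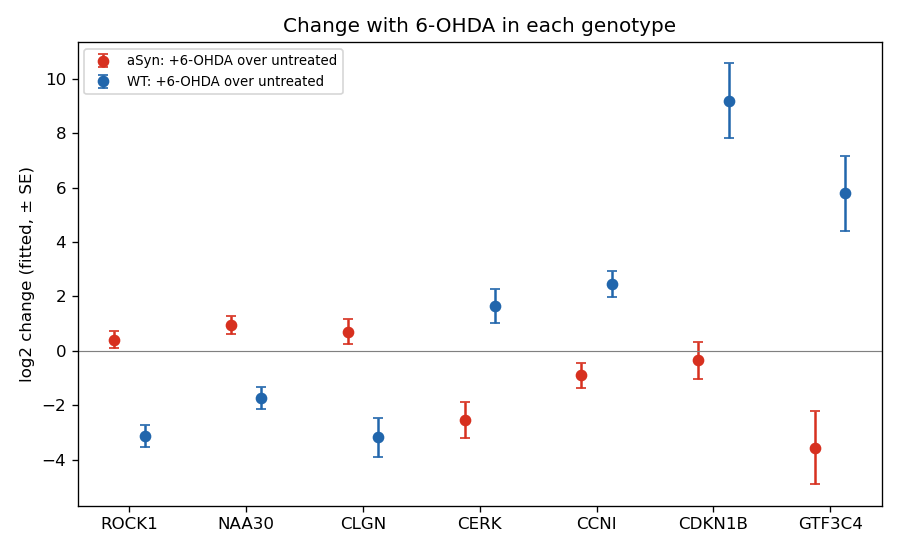
Fitted log2 change with 6-OHDA over untreated cells (y axis) for each gene, in alpha-synuclein (red) and WT cells (blue), with SEs as bars. The fitted signs oppose each other in every gene (ROCK1 0.41 and -3.13, CCNI -0.90 and 2.47). The genes were picked for large changes that differed between the genotypes. In alpha-synuclein cells the sign is uncertain for ROCK1 (0.41 ± 0.30), CLGN (0.70 ± 0.47), CCNI (-0.90 ± 0.46) and CDKN1B. There CDKN1B lies within 1 SE of 0, and CLGN is at 0.0121 without 1 library. The values of CDKN1B and GTF3C4 rest on libraries at 0.

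The genotypes were also set side by side within each treatment, using the same libraries. With 6-OHDA, 6 of the 7 genes did not overlap between alpha-synuclein and WT cells, where 24.1% of tested genes did not. Without 6-OHDA this held for 1 gene, CDKN1B, against 5.34% of tested genes. These libraries also chose the genes, so nothing is read from the counts of separated genes. The log2 difference, alpha-synuclein over WT, was 3.24 for ROCK1, 2.28 for NAA30 and 3.77 for CLGN with 6-OHDA, and -0.30, -0.40 and -0.11 for the same genes without. For CERK and CCNI it was -2.64 and -2.06 with 6-OHDA, and 1.55 and 1.31 without.

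The untreated alpha-synuclein libraries, which enter the change with 6-OHDA in alpha-synuclein cells, the genotype difference without 6-OHDA and the interaction, were widely spread. The SD over the 4 libraries, on the log2 CPM scale, was 1.01 for ROCK1, 1.31 for CCNI and 2.77 for GTF3C4, against a median of 0.21 over all tested genes. For the 7 genes this SD exceeded that of 95.8% to 99.96% of tested genes. The ratio of ROCK1 to CCNI, which is comparable between libraries though not a ratio of molecules, shows how the libraries were ordered. It was 0.134, 6.12, 0.46 and 0.785 in replicates 1 to 4 of untreated alpha-synuclein cells, a 45.6-fold span. It was 1.06 to 4.22 in alpha-synuclein cells with 6-OHDA, 0.0396 to 0.0512 in WT cells with 6-OHDA and 0.806 to 4.59 in untreated WT cells. Replicate 1 of untreated alpha-synuclein cells thus lay nearest to treated WT cells and replicate 2 beyond every untreated WT library. Replicates 3 and 4, which lay between them, carry 4 barcode numbers each in their library names, unlike the other 20 libraries. Without those 2 libraries the sign of each interaction was kept.

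**Figure D3:**
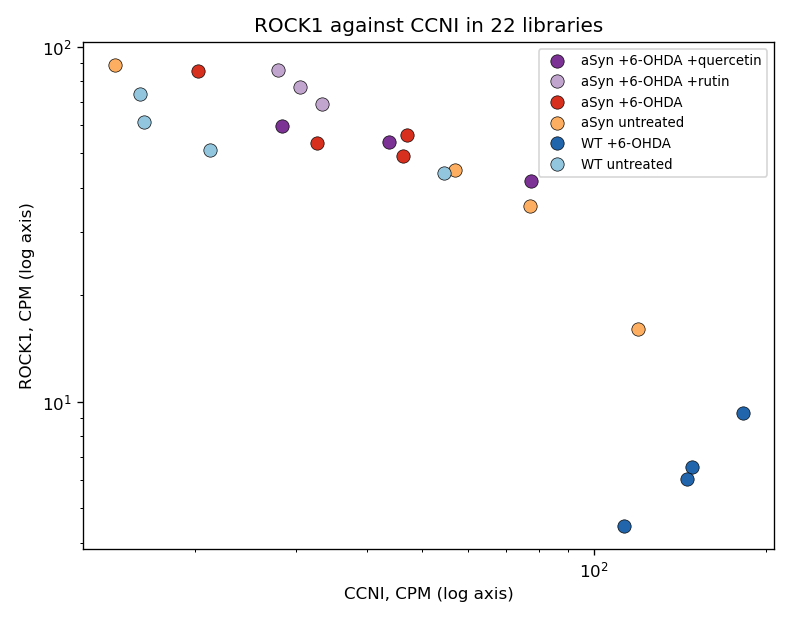
ROCK1 (y axis) against CCNI (x axis) in CPM, both on log axes, with 1 point for each library coloured by group. Treated WT libraries form a separate corner at 113 to 182 CPM of CCNI, and the 4 untreated alpha-synuclein libraries run from replicate 1, nearest to it (119 CPM of CCNI), to replicate 2 at the opposite end (14.5 CPM).

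Within each untreated group the mean GC content of the libraries fell as this ratio rose. Within treated WT cells, by contrast, replicate 4 had both the lowest ratio and the lowest GC content. With rutin the GC content rose with the ratio (49.80, 49.85 and 49.86% at ratios of 2.06, 2.51 and 3.06). With 6-OHDA alone and with quercetin, the library of highest ratio had the lowest GC content, but the others did not follow that order. Weighting each gene's longest coding transcript by its counts gave a mean GC content of 49.9 to 50.1% in alpha-synuclein cells with 6-OHDA, against 50.1 to 51.4% in untreated alpha-synuclein cells. It was 51.6 to 51.9% in WT cells with 6-OHDA, against 50.1 to 50.8% in untreated WT cells. Among untreated alpha-synuclein cells replicate 1 was highest (51.4%) and replicate 2 lowest (50.1%), the same order as for CCNI. Across 16573 tested genes, which are not independent replicates, the interaction had a Pearson r of -0.43 with transcript GC content. Split into 10 classes of rising GC content, the genes had a median interaction of 0.51 in the lowest class and -0.58 in the highest.

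The 3 genes with a positive interaction have transcripts low in GC, at 40.5% for ROCK1, 39.1% for NAA30 and 39.5% for CLGN, in a class whose median interaction was 0.43. CERK is at 52.8%, in a class with a median of -0.13. CCNI, GTF3C4 and CDKN1B, at 45%, 44.4% and 47.7%, lie in classes with medians of 0.24, 0.24 and 0.11, opposite in sign to their own interactions. With GC content entered as an offset in each library, an alternative added after the data were seen, the interaction was 3.23 for ROCK1, 2.32 for NAA30, 3.51 for CLGN, -4.08 for CERK and -3.58 for CCNI. The values of these 5 genes moved by less than their SEs. Class medians ran only from 0.51 to -0.58, so such an offset could move values this large only a little. Nothing is therefore read from this, and the part of GC content in the changes of the 7 genes was not tested. Over all genes, 848 were called in the interaction with the offset and 3594 without it. Other features differed among the 7: the longest coding transcript ran from 2657 bases for CDKN1B to 9484 for ROCK1 (median of tested genes 3101), and the 3' UTR took from 25.4% of it for CLGN to 83.8% for NAA30.

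**Figure D4:**
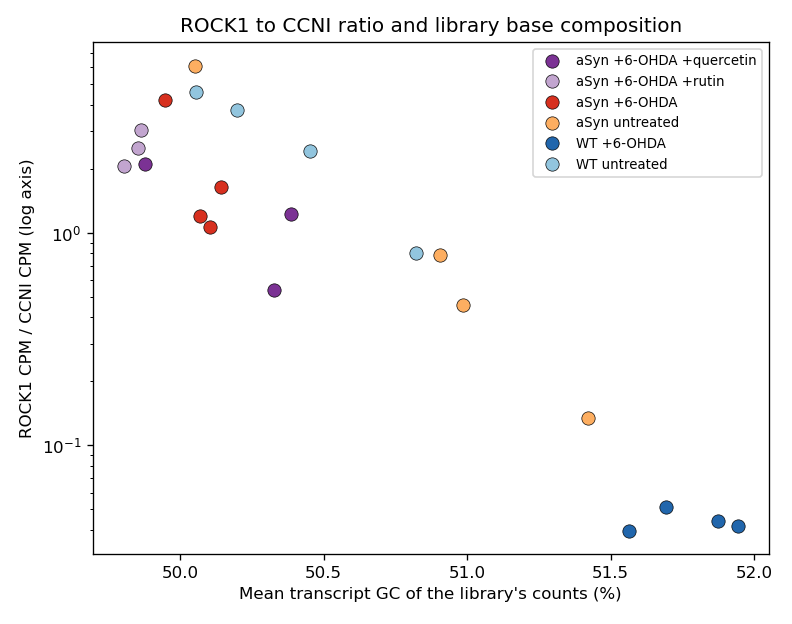
Ratio of ROCK1 to CCNI in CPM (y axis, log) against the mean transcript GC content of a library's counts (x axis, percent), 1 point for each library. Treated WT libraries (51.6 to 51.9% GC, ratio 0.0396 to 0.0512) and untreated alpha-synuclein replicate 1 (51.4%, 0.134) lie at the right.

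Quercetin, a flavonol, and rutin, its glycoside, were given to alpha-synuclein cells with 6-OHDA. These libraries did not choose the genes, although each comparison with 6-OHDA alone shares the 4 treated alpha-synuclein libraries that did. ROCK1 had 41.8, 53.8 and 59.6 CPM with quercetin and 68.8, 76.7 and 85.7 CPM with rutin, against 49.2 to 85.5 CPM with 6-OHDA alone. CLGN had 5.91, 7.19 and 9.33 CPM with quercetin and 20.7, 28.1 and 11.2 CPM with rutin, against 5.38 to 30.4 CPM with 6-OHDA alone. NAA30 had 16.3, 18.6 and 27.5 CPM with quercetin and 32.9, 29.8 and 31.8 CPM with rutin, against 26.2 to 39.7 CPM with 6-OHDA alone. In these 3 genes the quercetin libraries lay below the rutin libraries without overlap. Neither compound was separated from 6-OHDA alone in any of the 7 genes, where 13.5% of tested genes were for quercetin and 8.7% for rutin.

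The other 4 genes overlapped between all 3 groups. CERK had 11.5, 10.3 and 3.30 CPM with quercetin and 2.32, 2.68 and 4.55 CPM with rutin, against 2.33 to 5.64 CPM with 6-OHDA alone. CCNI had 77.5, 43.8 and 28.3 CPM with quercetin and 33.4, 30.5 and 28.0 CPM with rutin, against 20.3 to 47.0 CPM with 6-OHDA alone. Of the quercetin libraries, replicates 1 and 2 stood above the other groups for CERK and replicate 1 for CCNI. CDKN1B had 12, 70 and 27 counts with quercetin and 16, 19 and 0 with rutin, and GTF3C4 had 7, 0 and 22 with quercetin and 5, 0 and 0 with rutin.

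None of the 7 passed edgeR's quasi-likelihood test at an adjusted p under 0.05 for either compound or between them. For quercetin over 6-OHDA alone, 2.53% of all genes were called (420), and the 7 genes had adjusted p of 0.302 to 0.761. CLGN had the smallest, with a log2 change of -1.08 ± 0.52 (95% interval by the normal quantile -2.10 to -0.05). That quantile makes intervals narrow for few libraries, so nothing is read from the upper end below 0. No quercetin library lay below all of those with 6-OHDA alone in CLGN. The changes were -0.26 for ROCK1 (-0.90 to 0.38), -0.64 for NAA30 (-1.34 to 0.06), 1.23 for CERK (-0.19 to 2.65) and 0.47 for CCNI (-0.49 to 1.44). For rutin, 0 genes of the whole table were called (0%) by edgeR, 1790 had an unadjusted p under 0.05 and DESeq2 called 289. The adjusted p of the 7 ran from 0.813 to 0.999, with log2 changes between -0.26 for CERK (-1.95 to 1.43) and 0.37 for CLGN (-0.61 to 1.35). The interval of GTF3C4, with its many zeros, ran from -4.13 to 4.27.

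Quercetin and rutin differ by the sugar that rutin carries, and their doses are not given, so a match of dose cannot be checked. This comparison shares no library with those that chose the genes. Their libraries did not overlap in 3 of the 7 genes, where 21.7% of tested genes did not. The log2 difference, quercetin over rutin, was -0.56 for ROCK1 (95% interval -1.24 to 0.12), -0.59 for NAA30 (-1.33 to 0.16) and -1.45 for CLGN (-2.52 to -0.37). It was 1.49 for CERK (-0.09 to 3.07), 0.67 for CCNI (-0.37 to 1.71) and 0.81 for CDKN1B (-0.66 to 2.27). The adjusted p ran from 0.422 for CLGN to 0.847 for GTF3C4. Of all tested genes, 1 was called (0.00602%), the gamma-synuclein gene SNCG, named here after its value was seen, while 1481 had an unadjusted p under 0.05 and DESeq2 called 120. The mean GC content of the counts was 49.9 to 50.4% with quercetin and 49.8 to 49.9% with rutin, and its part in these differences was not tested.

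Genes that work with 6 of the 7 (all but ROCK1) were read from 6 lists of 12 to 23 tested genes each. None of the lists chose the 7, but they were drawn up with earlier results of these data known. Of all tested genes 21.6% were called in the interaction, 11.2% with a positive and 10.5% with a negative value. Of 12 N-terminal acetyltransferase genes, 4 were called with a positive and 3 with a negative interaction (median of the 12 genes 0.22, against -0.01 over all genes). NAA50, a catalytic subunit of another acetyltransferase complex, had log2 changes of -0.06 in alpha-synuclein cells and -0.86 in WT cells (interaction 0.81 ± 0.19, edgeR adjusted p = 0.00402). Of 13 calnexin cycle genes, 8 were called higher with 6-OHDA in each genotype, none was lower in alpha-synuclein cells and 1 was lower in WT cells. Over all genes, 22.9% were called higher and 24.2% lower in alpha-synuclein cells, and 25.8% higher and 26.2% lower in WT cells. EDEM1, which passes misfolded glycoproteins on for degradation, rose by 1.55 in alpha-synuclein cells and 2.90 in WT cells (interaction -1.35 ± 0.20, adjusted p = 0.000297). In that list 2 genes were called with a positive and 2 with a negative interaction (median of the list 0.03).

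Of 19 sphingolipid enzymes, 4 were called with a positive and 3 with a negative interaction (median of the list 0.07). CERS6, a ceramide synthase, had log2 changes of -0.60 in alpha-synuclein cells and -1.45 in WT cells (interaction 0.85 ± 0.17, edgeR adjusted p = 0.00166). SPHK2, a sphingosine kinase, had log2 changes of -0.32 in alpha-synuclein cells and 0.48 in WT cells (interaction -0.80 ± 0.12, adjusted p = 0.00036), the same order of signs as CERK.

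Of 15 cyclins outside the core cycle and partners of CDK5, 3 were called with a positive and 2 with a negative interaction (median of the list -0.16). CDK5R2, an activator of CDK5, had log2 changes of 0.10 in alpha-synuclein cells and 0.87 in WT cells (interaction -0.77 ± 0.17, edgeR adjusted p = 0.00362). Of 23 genes of CDK inhibitors, their kinases and p27 turnover, 1 was called with a positive and 3 with a negative interaction (median of the list -0.12). CDKN1A (p21), the paralogue of p27 and a p53 target, averaged 229 ± 78.1 CPM in treated and 20.4 ± 1.89 CPM in untreated alpha-synuclein cells, and 303 ± 32.6 CPM in treated and 13.8 ± 3.38 CPM in untreated WT cells (SD, n = 4 each). It thus rose in both genotypes (interaction -0.97 ± 0.30, adjusted p = 0.0252), and its untreated WT level was well above 0, unlike that of CDKN1B.

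Of 21 genes of TFIIIC and RNA polymerase III, none was called with a positive and 3 with a negative interaction (median of the list -0.09). GTF3C5, another TFIIIC subunit, had log2 changes of -0.40 in alpha-synuclein cells and -0.03 in WT cells (interaction -0.36 ± 0.11, edgeR adjusted p = 0.0215), far from the values of GTF3C4. The called genes of the 6 lists had interactions between -1.35 and 0.85. Those of the 7 members were larger in size, which follows from how the members were picked. With GC content as an offset, the number of genes called in the interaction was 0 for the acetyltransferases (7 without the offset), 1 for the calnexin cycle (4) and 1 for the sphingolipid enzymes (7). It was 2 for the cyclins (5), 0 for the CDK inhibitors (4) and 0 for TFIIIC (3). The 2 genes of the cyclin list called with the offset were not among the 5 called without it. Among the list genes named above, EDEM1 and CERS6 were still called, and NAA50, SPHK2, CDK5R2, CDKN1A and GTF3C5 were not.

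Under quercetin, 3 of the 13 calnexin cycle genes were lower than with 6-OHDA alone, where 1.97% of all genes were. PDIA3, a disulfide isomerase that works with calnexin, fell by 0.67 ± 0.15 on the log2 scale (edgeR adjusted p = 0.0246), with 512 ± 22.9 CPM with quercetin (SD, n = 3) and 810 ± 266 CPM with 6-OHDA alone (SD, n = 4). UGGT1, the glucosyltransferase that returns glycoproteins to the cycle, fell by 0.61 (adjusted p = 0.039), and CALR (calreticulin) fell by 0.59 (adjusted p = 0.0451). Among the cyclins, CCND1 (cyclin D1) rose by 0.88 (adjusted p = 0.0417) and CCNL2 (cyclin L2) fell by 0.36 (adjusted p = 0.0261), where 0.56% of all genes were called higher. When only the groups compared were fitted, none of these calls remained. No list had a called gene under rutin or between the compounds.

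**Figure D5:**
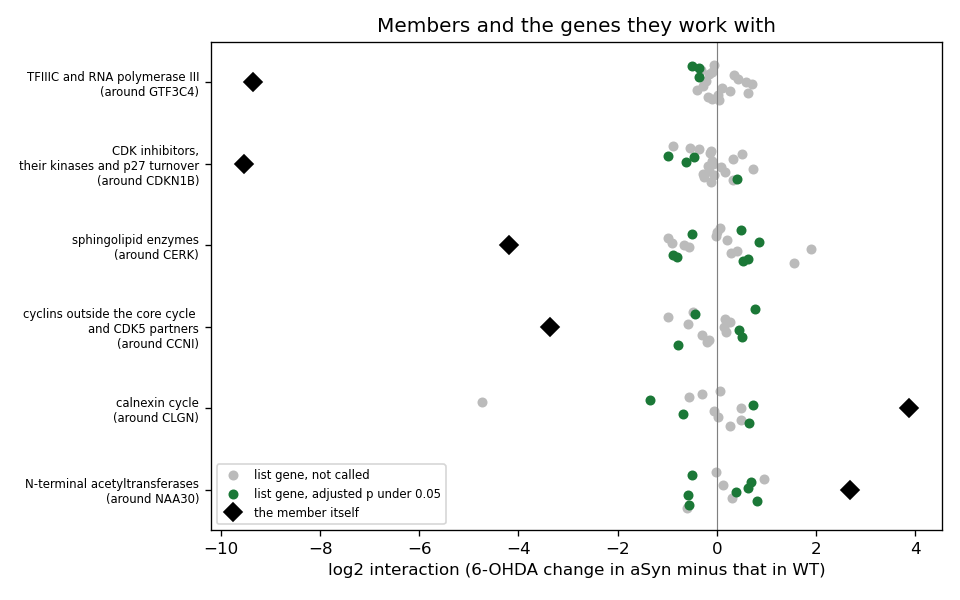
Interaction of genotype and 6-OHDA (log2, x axis) for the genes of each list, by list (y axis), with called genes in green, others in grey and the gene the list was drawn around as a black diamond. The called genes lie between -1.35 and 0.85, and the diamonds, which mark genes picked for large changes, between -9.54 and 3.87.

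Genes beside the 7 on the chromosome were read with them. DDX31, which overlaps GTF3C4, had an interaction of 0.14 ± 0.14 (adjusted p = 0.537). The labels do not say whether counting used strand, so reads of the overlapping ends are uncertain. SCOC, next to CLGN, had an interaction of 0.91 ± 0.22 (edgeR adjusted p = 0.0052), and AP5M1, before NAA30, one of 0.45 ± 0.11 (adjusted p = 0.00653). SEPT11, next to CCNI, had one of 0.49 ± 0.14 (adjusted p = 0.0171), opposite in sign to that of CCNI. GRAMD4, next to CERK, had -0.08 ± 0.13, and APOLD1 and GPR19, on both sides of CDKN1B, had -0.68 ± 0.26 and 0.37 ± 0.51, none of them called.

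The genes whose pattern was most like each of the 7 were ranked by Pearson r of log2 CPM over the 22 libraries, among the 11503 genes that averaged at least 5 CPM. The libraries share their group structure, so r is given as a measure of likeness only. ROCK1 was most like CASP8AP2, RANBP6 and ZNF281 (r of 0.974, 0.974 and 0.969), and NAA30 was most like CLDN12, CEP57L1 and EPM2AIP1 (0.943 to 0.936). CLGN was most like FASTKD2, YTHDC1 and KDM5A (0.917 to 0.899). These 9 genes have transcripts of 38.1% to 42.9% GC. CERK was most like ANKRD13B, PTBP1 and ENGASE (0.803 to 0.789), of 59.4% to 64.6% GC, and CDKN1B was most like PLD3, NAGLU and SLC9A3R2 (0.859 to 0.843), of 63.4% to 67.4% GC. CCNI was most like ERF, REEP5 and SNX18 (0.913 to 0.902), and GTF3C4 was most like CD24, PRTG and MED22 (0.873 to 0.826). Of these last 6, ERF and MED22 have transcripts richer in GC than the median gene (48.9%) and the other 4 do not. SNX18 had the largest interaction among the 21 genes, -1.89.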

How the data were processed

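RNA of 22 libraries was measured as kallisto estimated counts per gene, deposited by the authors as whole numbers without normalization. Trimmomatic 0.38, kallisto 0.46.2 and the human build GRCh38 are named per the submitters' processing notes, and the labels' protocols name an MGIEasy library kit. The sources used here do not give how transcripts were summed to genes, or strand use. Since kallisto splits reads among similar transcripts, counts of near-identical copies are uncertain.

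Counts were rounded and fitted with edgeR 4.0.16 in R 4.3.3: filterByExpr with a minimum count of 10, TMM, and quasi-likelihood tests on 6 group means, with calls at a Benjamini-Hochberg adjusted p under 0.05 over 16601 genes. SEs were fold changes divided by the square root of F, and log2 CPM used a prior count of 2. The code was tested on simulated data. GENCODE 29 matched 34658 of 34679 IDs without version. Replicates differed by more than sampling noise (2.73 to 23.6 chi-square units per degree of freedom, 30 pairs), so none was counted as a copy.

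The members and lists were chosen with earlier results of these data known. Named genes were the 7 members, up to 5 genes of each list by interaction p and 3 by each compound's, neighbours, pseudogene copies and the 3 most alike genes; the text names part of them, taken after their values were seen. Groups and replicate numbers came from sample titles. A few genes and 1 list are not reported here. Alternatives were DESeq2 1.42.0, its size factors, no filter, a replicate block, the compared groups alone, GC content in 20 bins as offsets, each library left out, and the libraries with several barcode numbers left out.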

Additional observations from a re-analysis of the deposited data

Results flagged for a closer look

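CCNI in untreated WT cells had 1 library, replicate 2, far above the others, at 54.5 CPM against 16.0 to 21.2 CPM. GTF3C4 in the same group was at 0.432 CPM in replicate 4, from 4 counts, and at 0 in the other 3. It stood out because those 3 were at 0, and it lies below the limits of 0.490 to 0.561 CPM that a count of 0 allows in them. Over the 7 genes 27 groups of 4 were looked at in this way, and chance flags about 1 in 20.

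The genotypes differed in their response to 6-OHDA by the edgeR interaction test (log2, alpha-synuclein minus WT cells, adjusted p under 0.05) in 26 named genes of the lists. Among the acetyltransferases they were NAA60 (-0.57), NAA10 (-0.50), NAA50 (0.81), NAA16 (0.70) and NAA38 (-0.57). In the calnexin cycle they were EDEM1 (-1.35), MOGS (-0.67), UGGT1 (0.66) and EDEM3 (0.74). Among sphingolipid enzymes they were SPHK2 (-0.80), CERS6 (0.85), SPTLC2 (0.53), ASAH1 (0.49) and SPHK1 (-0.88). Among the cyclins they were CDK5R2 (-0.77), CCNC (0.78), CCNL1 (0.44), CCNT2 (0.50) and CCND3 (-0.44). Among the CDK inhibitors they were CDKN2D (-0.62), SKP1 (0.42), CDKN1C (-0.46) and CDKN1A (-0.97), and for RNA polymerase III BRF1 (-0.50), GTF3C5 (-0.36) and BRF2 (-0.35). Lane and group cannot be told apart in this test. With GC content as an offset, only EDEM1 and CERS6 of these 26 genes were still called (edgeR adjusted p = 0.000527 and 0.0216).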

How the results depend on the processing

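Of 862 values of the 7 genes under the alternatives, 845 kept their sign and call or stayed within 1 SD, and no member was called for a compound under any of them. For 6-OHDA in alpha-synuclein cells CDKN1B ran from -0.72 to 0.26, and for alpha-synuclein in untreated cells CLGN ran from -0.60 to 0.27. Among the compound comparisons, signs turned only for rutin: with a replicate block NAA30 was 0.0799 and GTF3C4 -0.31, with DESeq2 GTF3C4 was -0.0285, and leaving out 1 library gave -0.124 to 0.0719 for NAA30, -0.54 to 0.0025 for CERK, -0.41 to 0.24 for CDKN1B and -4.11 to 1.00 for GTF3C4. Counts of called genes moved more. For alpha-synuclein in untreated cells (108) there were 234 with DESeq2, 23 with the compared groups alone, 11 without the libraries of several barcode numbers and 33 to 239 with 1 library left out (33 without alpha-synuclein replicate 4, 239 without replicate 2). GC offsets gave 1906 for alpha-synuclein in 6-OHDA cells and 848 for the interaction (3594), which was 1978 without the libraries of several barcode numbers. For quercetin (420) there were 999 with DESeq2, 120 with a replicate block, 2 with the compared groups alone, 861 with GC offsets, 230 without the libraries of several barcode numbers and 26 to 896 with 1 library left out (26 without quercetin replicate 2, 896 without 6-OHDA replicate 1). For rutin (0) there were 2 with DESeq2 size factors, 289 with DESeq2, 4 without a filter, 2 with GC offsets and 0 to 143 with 1 library left out (143 without 6-OHDA replicate 1). For quercetin against rutin (1) there were 120, 8 without a filter, 19 with the compared groups alone, 5 with GC offsets and 0 to 1 with 1 library left out. The cause was not tested. Replicate numbers share no more than a number: over 51 same-numbered pairs r was -0.14 to 0.08, 0 of them over 0.1. By Spearman's rank correlation, at most 1 of the 3 most alike genes of each member was the same. The counts of CDKN1B, GTF3C4 and CLGN fall to a few reads, and the part of depth in this was not tested. GTF3C4 had 0 counts in untreated alpha-synuclein replicates 2 and 4, and 17 in treated WT replicate 4, the library with the fewest counts.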
